A study of Homo sapiens with 12 samples.

Results

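The comparison described here set the BHLHE40-KD line against its control line LM-EV after 6 h of hypoxia. Its members were 4 of the 12 arrays in the series, 2 for each line, taken from the sample labels. LM cells were derived from lung metastases of MDA-MB-231, a human triple-negative breast cancer cell line. LM-EV cells carried a control vector and came from pooled drug-resistant colonies, while BHLHE40-KD cells carried 1 short hairpin RNA against BHLHE40, delivered by lentivirus in a stable line. The knockdown line was selected in puromycin, and the control cells went through antibiotic selection alongside it. Both lines were placed for 6 h in 1% oxygen with glucose at 1 mg per ml, according to the labels. The methods of the study name only the oxygen. The other 8 arrays held the same lines untreated and after 48 h. Each group had 1 array on each of 2 chips, called slide 1 and slide 2 below, and the methods describe independent experiments. Because each line was represented by 1 culture lineage, a difference between the lines and an effect of the hairpin cannot be told apart here.

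BHLHE40, also known as DEC1, is a basic helix-loop-helix transcription factor that binds E-box elements, the DNA letters CACGTG. It usually acts as a repressor and sits in a feedback loop of the circadian clock, where it opposes the activators CLOCK and BMAL1. It is a direct target of the hypoxia-inducible factor HIF1A, so that oxygen shortage raises its transcript in many cell types, and it has been tied to survival and spread of tumour cells. HBEGF, a growth factor of the EGF family that is released from the cell surface and activates EGFR, is the target on which the study of these cells centred.

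The values were normalized intensities of Illumina HT-12 bead arrays, with log2 differences always given as BHLHE40-KD minus LM-EV. Pairs of values are slides 1 and 2 in that order, and where values of both lines are set against each other those of LM-EV come first. Between 20340.0 and 20658 probes were detected on an array at 6 h (detection p under 0.05), and signals under a floor of 16 were set to it. A gene was tested when any of the 6 groups detected a probe of it on both its arrays, which left 12336 genes, 10499 of them detected on all 4 arrays at 6 h. The separate table of bead signals that came with these arrays was faulty: 3 pairs of its columns were identical, and both slide 2 columns at 6 h held another array's signals. Detection p-values followed the normalized intensities on all 12 arrays, with a weakest rank correlation of 0.983, so the normalized intensities were used. Of 14 markers of MDA-MB-231 cells, 13 were tested and 12 of these were detected on all 4 arrays, while SPARC was detected in LM-EV only. The summed signal of the 13 lay between 332364 and 339527 in LM-EV and between 308609 and 318284 in BHLHE40-KD.

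The transcript of BHLHE40 itself was lower in the knockdown on each slide, but the difference did not pass the test. Its normalized intensity was 4283 and 6795 on slides 1 and 2 in LM-EV, and 3410.3 and 4324 in BHLHE40-KD. The lines overlapped, since the knockdown on slide 2 lay above LM-EV on slide 1. The log2 difference was -0.49 ± 0.29 (SE, n = 2 arrays a line), with an adjusted p of 0.286 from limma over all genes. In untreated cells it read 2992 and 2716 in LM-EV and 1771 and 1444 in BHLHE40-KD, without overlap. Untreated cells showed a log2 difference of -0.83 and cells at 48 h -0.46, with adjusted p of 0.0894 and 0.322. The array therefore gave no call on the targeted gene at any of the 3 times. These values are RNA. By immunoblot, the study reported less BHLHE40 protein in LM cells with the hairpin, at baseline and under hypoxia. An exact permutation test of 2 against 2 arrays cannot go below p = 0.333.

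Its paralog BHLHE41 (DEC2), which binds the same E-box and shares the clock role, had 21.4 and 90.8 in LM-EV and 88.4 and 211 in BHLHE40-KD. The knockdown was the higher on each slide, but the lines overlapped, only 1 LM-EV array detected the gene, and the log2 difference of 1.63 ± 0.65 did not pass (adjusted p = 0.125). The clearest change among the clock genes was in CIART, a repressor of CLOCK and BMAL1 that is itself driven through E-boxes. CIART read 318 and 433 in LM-EV and was not above background on either array of BHLHE40-KD. That made it at least 7.45-fold lower (adjusted p = 0.00209); bounds of this kind set the mean of the line that detected a gene against the lowest detected signal on the other arrays. CRY1, a core repressor of the clock, read 6592 and 5968 in LM-EV and 4191 and 4119 in BHLHE40-KD, a log2 difference of -0.59 ± 0.15 (adjusted p = 0.0308). It lost its call without any 1 of the 4 arrays (adjusted p from 0.0625 to 0.159). Of the 17 clock genes tested, CIART and CRY1 were lower and none was higher, against 18.4% called among all genes. PER2, another repressor, read 704 and 940.3 against 585 and 737 and did not pass (adjusted p = 0.384).

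The E-box was looked up in RefSeq promoters of build GRCh38.p14, over the 250 bases before the annotated start, on both strands (the motif is its own reverse complement). A promoter was at hand for 9895 of the 12336 genes. An E-box was found in 8.46% of the genes higher in the knockdown and in 8.53% of those lower, beside 8.85% of all tested genes. Among clock genes 4 of 17 held at least 1. Of the 22 members of the cytokine panel described below that had a promoter, none did. The 5 promoters printed next show the knocked-down gene, the clock gene that was lowest, a gene lower and a gene higher with an E-box, and HBEGF, which has none in this window. Capitals mark the E-box, and each run ends 1 base before the start of the gene.
BHLHE40 (chr3:4979187-4979436, plus strand): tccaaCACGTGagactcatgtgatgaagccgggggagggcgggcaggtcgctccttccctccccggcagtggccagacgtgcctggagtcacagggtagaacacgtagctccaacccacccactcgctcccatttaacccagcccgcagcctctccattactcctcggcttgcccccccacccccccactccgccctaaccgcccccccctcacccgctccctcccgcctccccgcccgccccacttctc
CIART (chr1:150282304-150282553, plus strand): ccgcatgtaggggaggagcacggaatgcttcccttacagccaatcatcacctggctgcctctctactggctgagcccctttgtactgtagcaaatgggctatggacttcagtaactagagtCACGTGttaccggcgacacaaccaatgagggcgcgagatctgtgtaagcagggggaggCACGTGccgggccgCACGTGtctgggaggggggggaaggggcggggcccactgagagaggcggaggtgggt
SEMA4D (chr9:89495657-89495906, minus strand): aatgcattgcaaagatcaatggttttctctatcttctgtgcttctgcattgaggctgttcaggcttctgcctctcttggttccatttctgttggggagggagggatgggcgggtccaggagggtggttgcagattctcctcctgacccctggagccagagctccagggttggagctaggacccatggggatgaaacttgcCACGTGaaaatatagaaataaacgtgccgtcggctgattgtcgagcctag
TGFB3 (chr14:75983012-75983261, minus strand): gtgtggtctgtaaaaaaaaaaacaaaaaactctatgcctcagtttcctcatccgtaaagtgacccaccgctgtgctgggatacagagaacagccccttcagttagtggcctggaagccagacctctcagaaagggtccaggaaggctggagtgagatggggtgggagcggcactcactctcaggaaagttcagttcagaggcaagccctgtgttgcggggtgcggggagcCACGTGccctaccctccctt
HBEGF (chr5:140346604-140346853, minus strand): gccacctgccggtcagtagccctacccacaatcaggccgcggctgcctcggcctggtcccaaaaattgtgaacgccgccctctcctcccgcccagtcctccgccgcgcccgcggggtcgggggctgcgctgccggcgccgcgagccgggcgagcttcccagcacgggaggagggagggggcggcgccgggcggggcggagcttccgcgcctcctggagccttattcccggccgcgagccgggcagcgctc
The CIART promoter held 3 E-boxes, which began 129, 71 and 57 bases before the start. In BHLHE40 the single E-box began 245 bases before the start, in SEMA4D 50 and in TGFB3 20. The letters describe these windows only. By the study's own coordinates, the HBEGF promoter region it probed for BHLHE40 binding lies further upstream. That region was not searched, so the windows cannot speak to that binding.

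At 6 h the 2 lines differed widely. limma called 2272 genes, 18.4% of those tested, at an adjusted p under 0.05: 1065 were higher in BHLHE40-KD (8.63%) and 1207 lower (9.78%). Of these, 407 higher and 538 lower genes differed at least 2-fold, and 94 and 187 at least 4-fold, on a fitted scale that rests on the floor for genes below background. All 2272 had the same sign on both slides, as did 73.8% of all genes tested. The call rests on the mean of these same 2 slide differences, so the shared sign of called genes is no separate support. Across genes the differences on slide 1 and slide 2 correlated with r = 0.70, a description over genes that share arrays. The methods of the study name genes altered by 1.5-fold or more between the lines in both experiments. Read here as the same direction on both slides, that rule picked 963 higher genes (7.81%) and 1083 lower genes (8.78%), of which 714 and 846 were also called by limma. A further 185 genes passed 1.5-fold in opposite directions on the 2 slides. The median SE was 0.18 on the log2 scale. The share of all genes without overlap between the lines is not given, so a lack of overlap describes single genes only. Without any 1 of the 4 arrays, between 351 and 448 higher and 443 and 747 lower genes were called.

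**Figure D1:**
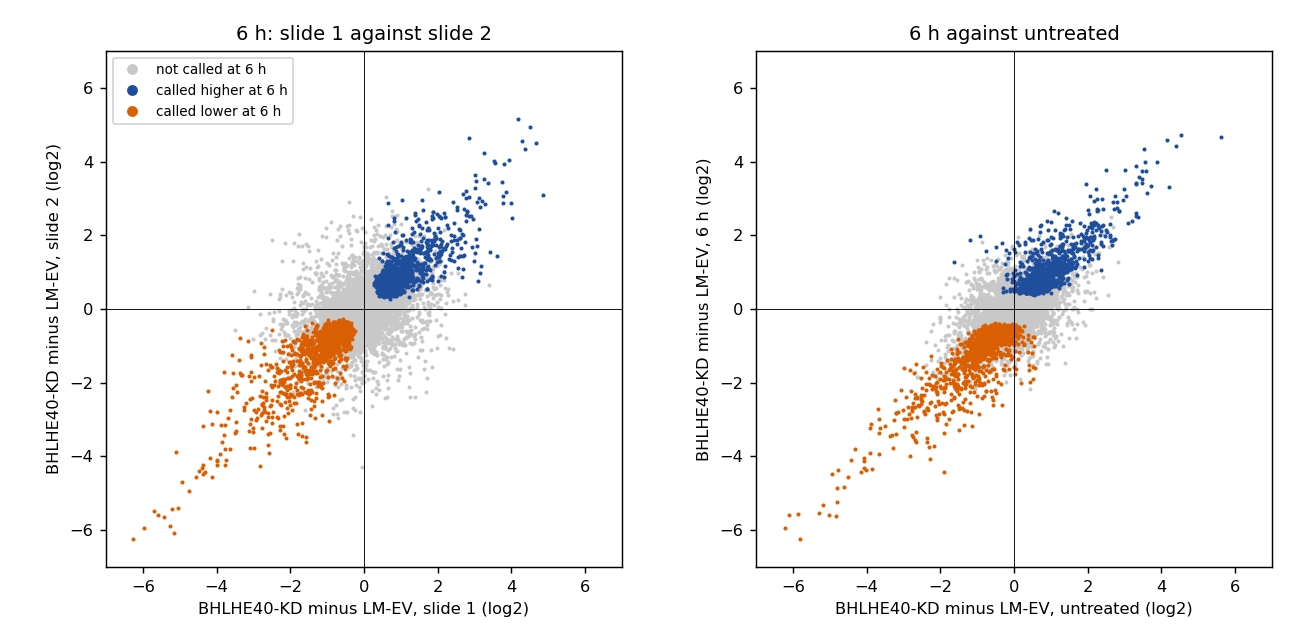
Each point is 1 of 12336 genes, and both axes are log2 differences of normalized intensity, BHLHE40-KD minus LM-EV. Left, slide 1 against slide 2 at 6 h; right, the untreated difference against that at 6 h. Genes called higher at 6 h are blue, genes called lower orange and others grey. The called genes have the same sign on both slides, which the calling itself favours, and most keep their side in untreated cells.

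Among the genes that rose most were those of the secreted proteins RARRES2, SLPI and SPP1. RARRES2, which encodes the chemoattractant chemerin, read 79.7 and 44.3 in LM-EV, where 1 of 2 arrays detected it, and 1443 and 1573 in BHLHE40-KD, a log2 difference of 4.66 ± 0.61 (adjusted p = 0.00304). SLPI, a secreted inhibitor of leukocyte proteases, read 34.3 and 105 against 1001 and 904, also with 1 detected array in LM-EV, and a log2 difference of 3.99 (adjusted p = 0.00155). SPP1, which encodes osteopontin, a ligand of CD44 and integrins, went from 121 and 45.5, again with 1 detected array, to 1169 and 857, a log2 difference of 3.75 ± 0.25 (adjusted p = 0.000193). The lines did not overlap for any of the 3, which adds no support, since they were picked for large differences. Their log2 differences rest in part on an undetected signal. Several other genes were below background on both LM-EV arrays, so that only bounds can be given. Among these were FLG, the epidermal barrier protein filaggrin, with 728 and 645 in the knockdown (at least 13.6-fold higher, adjusted p = 0.000204), the steroid dehydrogenase HSD17B2 (at least 7.64-fold), the uncharacterized C1orf115 (at least 8.38-fold), the ubiquitin ligase subunit ASB2 (at least 7.46-fold), NAP1L3 of the nucleosome assembly family (at least 7.02-fold) and the calcium-binding S100A2 (at least 6.90-fold). The same held for the tetraspanin TSPAN7, the myosin MYO1D and the serine protease PRSS22, with bounds of 5.03-, 4.66- and 4.32-fold. The remaining genes among the 15 largest were FAM133A (82.1 and 60.6 against 1598 and 1433), the glutamate transporter SLC1A7 (41.2 and 52.0 against 549.8 and 561), the NADPH oxidase NOX5 (66.4 and 78.7 against 966 and 713) and LRRC61 (44.9 and 76.8 against 711 and 563); SLC1A7 and LRRC61 were detected on 1 LM-EV array. Their adjusted p-values ran from 0.00014 for FAM133A to 0.0179 for NOX5.

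The genes that fell most were clear in LM-EV and below background on both knockdown arrays. APCDD1L, a relative of a Wnt inhibitor, read 1238 and 1206 in LM-EV and was at least 24.5-fold lower. VCAM1, an adhesion receptor for leukocyte integrins that has been linked to lung metastasis of MDA-MB-231 cells, read 832 and 1323 and was at least 21.1-fold lower (adjusted p = 7.14e-05); its 3 detected probes differed in size but all pointed down, with log2 differences of -2.58, -5.60 and -1.22. CDH11, a mesenchymal cadherin, read 616 and 944 and was at least 15.3-fold lower. THY1, a surface glycoprotein of mesenchymal cells, and ENG (endoglin), a co-receptor for TGF-beta ligands, were at least 12.0- and 9.26-fold lower, and SPARC, a collagen-binding matrix protein, at least 9.10-fold. The heparan sulfate sulfotransferase HS6ST2 was at least 14.9-fold lower, and the cytoskeletal regulator CDC42EP5 read 769.8 and 1289 in LM-EV with neither knockdown array above background. The semaphorin SEMA4D read 331 and 359 and was at least 6.93-fold lower, as GLB1L2 and ZNF558 were by at least 7.57- and 9.63-fold. The list was completed by the cancer-testis antigens MAGEA12, MAGEA6, MAGEA3 and CSAG3, with bounds of 19.9-, 21.5-, 12.7- and 6.93-fold; probes for these near-identical X-linked families cannot be assigned to single members with certainty. Of the 15 genes with the largest fall, all had adjusted p-values of 0.000307 or less. Where both knockdown arrays were set to the floor of 16, no spread between them was left. Such p-values rest in part on the floor, as do those of rising genes at the floor on both LM-EV arrays.

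**Figure D2:**
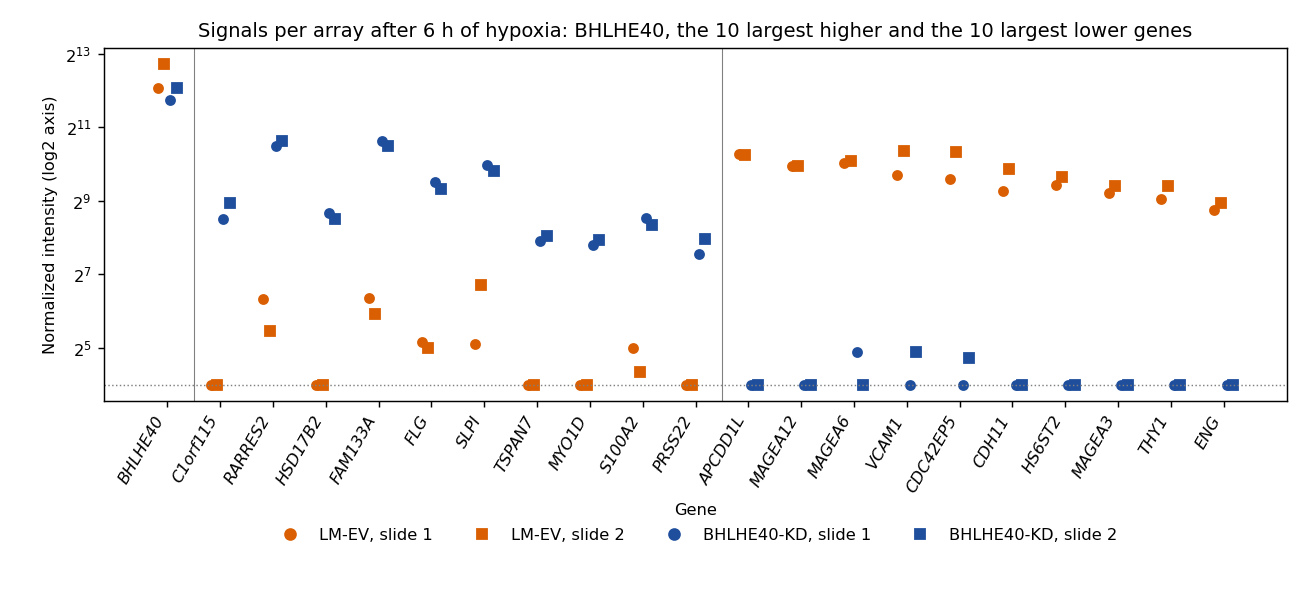
Normalized intensity on each of the 4 arrays at 6 h (log2 axis) for BHLHE40, the 10 genes with the largest positive and the 10 with the largest negative fitted log2 difference; orange LM-EV, blue BHLHE40-KD, circles slide 1 and squares slide 2. The dotted line is the floor of 16 to which lower signals were set. The lines overlap for BHLHE40 and for none of the other 20. Those 20 were picked for large called differences of the same sign on both slides, so their lack of overlap is no separate support.

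At 6 h 173 tested genes were detected on both knockdown arrays and neither LM-EV array, and 253 the other way round. Of these, 100 were also called higher and 156 lower, beside 8.63% higher and 9.78% lower over all genes. They were picked by detection on the same arrays that gave the calls, so the calls are no separate support. A bound of at least 2-fold was reached by 53 and 97. The pattern was the same untreated and at 48 h for 23 and 57 of them.

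The cytokine and growth factor panel of the study shifted down. The panel was chosen by the study on these same samples for a loss of hypoxic induction in the knockdown, so its direction is not independent evidence. Of 28 members, 27 were tested; 16 were lower and none was higher, 59.3% in all against 18.4% of all genes (9.78% lower), and the median log2 difference was -0.71 against 0.01 over all genes. Without any 1 of the 4 arrays between 5 and 11 were called lower, and without the LM-EV array of slide 1 a single member was called higher. IL17A was the 1 member with a positive difference (0.91, adjusted p = 0.18). HBEGF read 8802 and 8814 in LM-EV and 5109.7 and 5666 in BHLHE40-KD, a log2 difference of -0.71 ± 0.17 (adjusted p = 0.0284). The lines did not overlap, and the differences untreated and at 48 h were -0.99 and -1.16 (adjusted p = 0.00901 and 0.00539). HBEGF kept its call without KD array 2 but not without any 1 of the other 3 arrays (adjusted p from 0.0902 to 0.153). The genes around it on chromosome 5 also had a negative median, which is given with the chromosomes below.

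Of the 15 other members called, 13 had larger differences than HBEGF. FGF13, a member of the FGF family that acts inside the cell, read 818 and 1492 in LM-EV and 60.3 and 168 in the knockdown. GMFG (glia maturation factor gamma), an actin regulator, read 1585 and 2224 against 251 and 427, a log2 difference of -2.52 ± 0.19 (adjusted p = 0.000307). For both, the lowest LM-EV array was more than 3 times the highest knockdown array. The vasoconstrictor peptide gene EDN1 read 5342 and 6060.4 against 1588 and 2118 (log2 difference -1.63, adjusted p = 0.000323), and the heparin-binding factor MDK 4404 and 6188 against 1549 and 1810.5 (log2 difference -1.64). Of the 3 probes of MDK, 1 disagreed (-1.38, 0.19 and -1.64). IL32 and IL1A, both proinflammatory, had log2 differences of -2.46 and -0.94, and CCN2, the connective tissue growth factor CTGF, -0.52 (adjusted p = 0.0411). The other members called lower were the Notch ligand JAG2 (-2.08), the neurotrophic factor NRTN (-1.63), the cytokine subunit EBI3 (-1.43), FGF1 (-1.17), TNFSF12 (-0.87) and the chemokine-like CMTM7, CMTM8 and CMTM3 (-1.28, -0.85 and -0.65). NRTN and FGF1 were each detected on only 1 of the knockdown arrays, and NRTN and CMTM8 lost their calls with each array centred within each chromosome, an alternative chosen after seeing the data (-1.62 and -0.79). IL11 and CSPG5 had log2 differences of -0.69 and -0.51 that did not pass (adjusted p = 0.0902 and 0.0601).

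Within the EGF family HBEGF was lower while the ligands TGFA and NRG1 were higher. Of 12 receptors, ligands and sheddases tested, 3 were called higher and 1 lower, 33.3% in all against 18.4% of all genes. The median log2 difference was 0.59. TGFA, which signals through the same receptor as HBEGF, read 784 and 913 in LM-EV and 2979 and 3531 in BHLHE40-KD. The lines lay far apart, with a log2 difference of 1.94 ± 0.15 (adjusted p = 0.000416) that was also called untreated (1.60) and at 48 h (1.62). NRG1, a ligand of ERBB3 and ERBB4, read 2156 and 2047 against 3285 and 3948 (adjusted p = 0.0125), and the sheddase ADAM10 513 and 633 against 1049 and 1123 (log2 difference 0.93, adjusted p = 0.0286). The neighbours of ADAM10 on chromosome 15 had a median of 0.74, and with arrays centred within chromosomes its difference was 0.41 and not called (adjusted p = 0.24). EREG (epiregulin) had a log2 difference of 1.35 and the receptor EGFR one of 0.39, neither of which passed (adjusted p = 0.06 and 0.123); the second probe of EGFR pointed the other way (-0.25 and 0.39).

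Of 12 genes of the HIF system tested, 3 had higher transcript levels in the knockdown and none lower, 25% in all against 18.4% of all genes (8.63% higher). HIF1A, the oxygen-regulated subunit, read 4413 and 6656 in LM-EV and 8826 and 11756 in BHLHE40-KD, a log2 difference of 0.91 ± 0.20 (adjusted p = 0.0204). EPAS1 (HIF2A) read 2194 and 2701 against 4786 and 4982, with a log2 difference of 1.00 ± 0.19 (adjusted p = 0.0136). The lines overlapped for neither gene. EGLN1, the prolyl hydroxylase that marks HIF subunits for degradation, was higher by 0.59 (adjusted p = 0.0293). EPAS1 lost its call without any 1 of the 4 arrays and HIF1A without 3 of them (adjusted p from 0.0528 to 0.131 for the lost calls). EGLN1 lost its call with arrays centred within chromosomes (0.43, adjusted p = 0.0813).

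Most hypoxia targets did not pass. Of 34 tested, 5 were higher and 1 lower, 17.6% in all against 18.4% over all genes, with a median of 0.24. VEGFA, the main angiogenic factor, read 522 and 553 in LM-EV and 1447 and 1846 in the knockdown, a log2 difference of 1.61 ± 0.16 (adjusted p = 0.000969) found on both of its probes. The others called higher were JMJD6 (1.05), the carbonic anhydrase CA12 (0.76), EGLN1 and the oxidoreductase ERO1A (0.45). The chemokine receptor CXCR4 read 119 and 136 in LM-EV and was below background in the knockdown (at least 2.55-fold lower, adjusted p = 0.00336). The glucose transporters SLC2A1 and SLC2A3 had log2 differences of 0.48 and 0.72, ANGPTL4 one of 0.87 and the collagen cross-linking enzyme LOX one of -0.87, with adjusted p from 0.0714 for LOX to 0.226 for ANGPTL4. In glycolysis 4 of 22 genes, 18.2% against 18.4% of all genes, were higher and none lower: PKM (0.90), GBE1 (0.72), ENO2 (0.70) and GPI (0.55). PKM and CA12 lie on chromosome 15 among genes with medians of 0.70 and 0.63. With arrays centred within chromosomes, PKM (0.38), CA12 (0.24) and ENO2 (0.61) lost their calls. Among nutrient and energy sensors TXNIP, an inhibitor of glucose uptake, read 17258 and 26196 against 38702 and 45956 (log2 difference 0.99). It and its relative ARRDC4 (1.52) were the 2 higher of 15, 13.3% against 18.4% of all genes. Both lost their calls under the same centring (0.83 and 1.01).

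**Figure D3:**
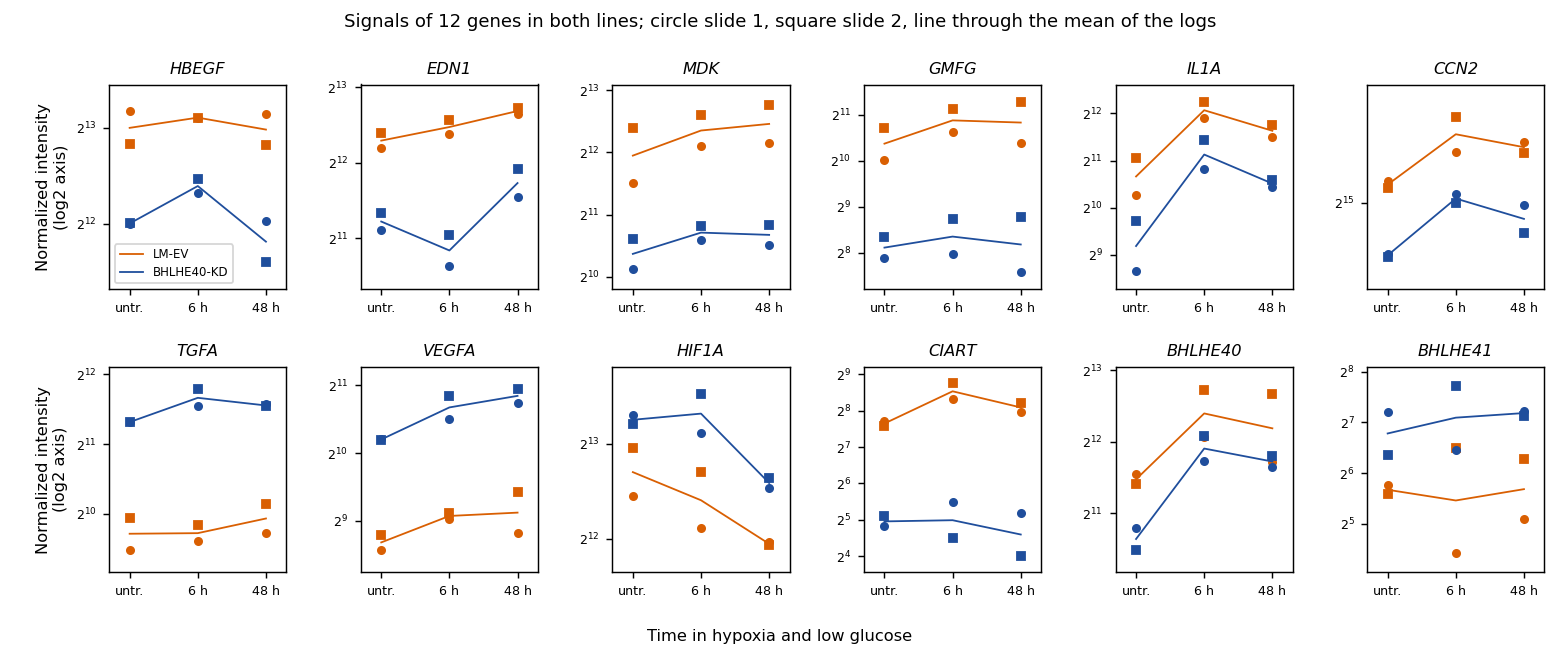
Normalized intensity (log2 axes, each panel with its own range) of 12 genes untreated, at 6 h and at 48 h; orange LM-EV, blue BHLHE40-KD, circles slide 1, squares slide 2, lines through the mean of the logs. HBEGF, EDN1, MDK, GMFG and CIART lie lower in BHLHE40-KD on both slides at each time, and TGFA and VEGFA higher; BHLHE40 overlaps between the lines at 6 h.

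Of 40 interferon-stimulated genes tested, 13 were lower and none higher, 32.5% in all against 18.4% of all genes (9.78% lower), with a median of -0.24; without any 1 of the 4 arrays between 5 and 9 were called. IFITM1, a restriction factor against viral entry, read 4029.9 and 6632 in LM-EV and 978 and 1183 in BHLHE40-KD, a log2 difference of -2.26 ± 0.18 (adjusted p = 0.000411). IFI27 read 1264 and 1202 against 288 and 279, with a log2 difference of -2.12 (adjusted p = 0.000614). The lines did not overlap for either. RIGI, the cytosolic RNA sensor, read 582 and 551 against 231 and 166 (-1.53, adjusted p = 0.00571), and EPSTI1 179 and 263 in LM-EV with no detection in the knockdown (at least 4.35-fold lower). The others lower were BST2 (-1.24), IFI44L (-1.60), IFIT5 (-1.12), IFIT3 (-0.93), the factors IRF1 and IRF7 (both -0.83), IFITM2 (-0.58), IFITM3 (-0.55) and RSAD2, which was below background in the knockdown. The probes of IFI44L did not agree (-1.60 and 0.12). IFITM1, IFITM2 and IFITM3 are related in sequence, IFITM2 and IFITM3 most closely, so that their values may be uncertain as single genes. Of the 13, 7 lie on chromosomes 10, 11, 13 and 15, which shifted as a whole (below); with the same centring 8 were called and IFIT3, IFIT5, IFITM2, IFITM3 and IRF7 were not (-0.64, -0.83, -0.29, -0.26 and -0.54). CD74, the invariant chain of MHC class II, changed most among the antigen presentation genes called, with 1739 and 1752 against 253 and 374 (log2 difference -2.51, adjusted p = 0.000184). Of the 19 tested 3 were lower and HLA-DMB (1.24) higher, 21.1% in all against 18.4% of all genes.

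Matrix genes moved both ways. Of 24 collagens and matrix proteins 4 were higher and 8 lower, 50% in all against 18.4% of all genes. The laminin chain LAMA4 read 782 and 1018 in LM-EV and 52.4 and 66.2 in the knockdown, a log2 difference of -3.92 ± 0.14 (adjusted p = 8.06e-06), and thrombospondin THBS1 had -0.97. In the other direction the fibrillar collagen chain COL5A1 read 814 and 794 against 2787 and 2922, with 1.83 ± 0.19 (adjusted p = 0.0012). LUM and FBN1, also called higher, were below background in LM-EV (bounds of 1.67- and 1.34-fold), and LUM lost its call with arrays centred within chromosomes. Proteases and their inhibitors were split, 5 higher and 5 lower of 18, so that 55.6% were called, against 18.4% of all genes. The collagenase MMP1 read 55318 and 54091 in LM-EV and 14561 and 19051 in the knockdown, a log2 difference of -1.72 ± 0.13 (adjusted p = 0.000323), while the stromelysin MMP3 read 1949.6 and 1485 against 5902 and 5649.6, with 1.76 ± 0.23 (adjusted p = 0.00288). Both lie on chromosome 11. The inhibitor TIMP3 was detected in LM-EV only (at least 2.78-fold lower), TIMP1 was higher by 0.87, the aggrecanase ADAMTS1 had -1.38 and the plasminogen activator PLAT 1.42.

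Of 19 adhesion genes 6 were lower and 1 higher, 36.8% in all against 18.4% of all genes. Beside VCAM1 and CDH11 they included CLDN11 and CADM1, which were below background in the knockdown (at least 5.55- and 2.22-fold lower). EPCAM, the epithelial adhesion molecule, was the 1 higher (0.52, adjusted p = 0.0328; 0.46 and not called with arrays centred within chromosomes). Among integrins the laminin receptor chains ITGA6 and ITGB4 were lower (-1.32 and -1.27), and the collagen and vitronectin receptor chains ITGA1 and ITGB5 higher (1.76 and 0.69). Integrin genes were called in 25% of 16 tested, against 18.4% of all genes. Of 10 hyaluronan genes, SPP1 included as a ligand of CD44, 4 were higher and 2 lower, 60% in all against 18.4% of all genes. HAS2, which makes hyaluronan, read 413 and 604 in LM-EV and 2177 and 1762 in the knockdown, a log2 difference of 1.97 ± 0.21 (adjusted p = 0.0012). CEMIP, which breaks it down, read 426 and 586 against 3693 and 4763, with 3.07 ± 0.25 (adjusted p = 0.00045). Both were higher on both slides with no overlap, and HAS3 was detected in the knockdown only (at least 2.18-fold higher). Its receptors CD44 and HMMR were lower, CD44 with 37334 and 34313 against 20582 and 21223 (log2 difference -0.78, adjusted p = 0.0101), which lost its call with arrays centred within chromosomes (-0.49), and HMMR with 573 and 648 against 142 and 126 (log2 difference -2.18, adjusted p = 0.000566).

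**Figure D4:**
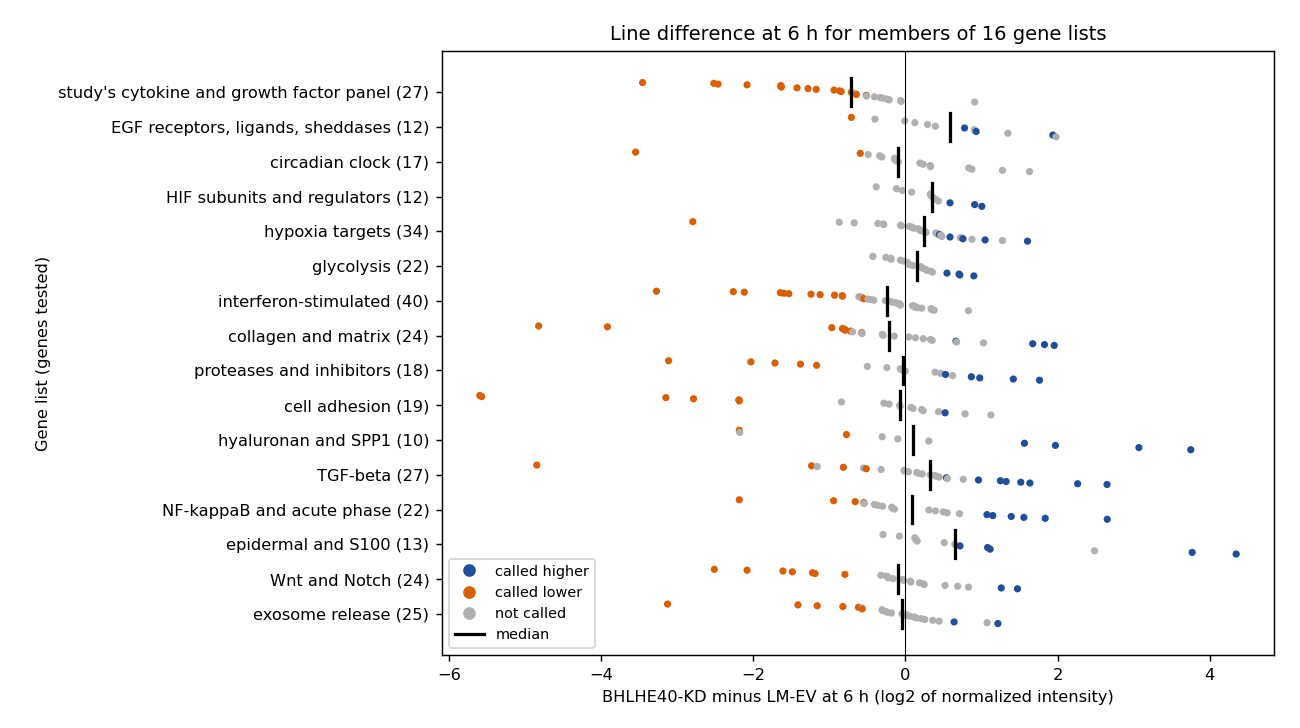
Log2 difference at 6 h, BHLHE40-KD minus LM-EV, for the tested members of 16 gene lists, with the number tested in brackets. Each point is 1 gene, blue called higher, orange called lower and grey not called; black bars are medians. The panel of the study and the interferon-stimulated genes have called members on the lower side only, while glycolysis, the HIF system and the epidermal genes have them on the higher side only.

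Genes of TGF-beta signalling were higher in 8 of 27 and lower in 4, with a median of 0.33; 44.4% were called, against 18.4% of all genes. Among ligands GDF15, a stress-induced member of the family, read 1668 and 5978 in LM-EV and 14516 and 27111 in BHLHE40-KD, a log2 difference of 2.65 ± 0.21 (adjusted p = 0.000402). TGFB3 read 55.8 and 81.1 against 337 and 309.9, with 2.26 (adjusted p = 0.00473), and TGFB2 had 1.32. The 2 lines lay apart for all 3. FSTL3, a secreted inhibitor of activin, was higher by 1.64, the target TGFBI by 1.25 and the mediator SMAD3 by 0.96. The inhibitor SMAD7 was lower (-0.82), although its 2 probes differed (-0.82 and -0.08), and ENG was lower as above.

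Inflammatory genes were split. In the NF-kappaB and acute-phase list 6 of 22 were higher and 4 lower, 45.5% in all against 18.4% of all genes. LCN2, an iron-sequestering acute-phase protein, read 1551 and 2244 in LM-EV and 10466 and 13168 in the knockdown, a log2 difference of 2.65 ± 0.26 (adjusted p = 0.000883), and the complement genes CFB and C3 had 1.56 and 1.84. Lower were ICAM1 (-2.19, with 1 knockdown array above background), the feedback inhibitor TNFAIP3 (-0.94) and the subunits NFKB1 (-0.55) and NFKB2 (-0.66). Of 27 interleukins, receptors and colony-stimulating factors 5 were higher and 4 lower, 33.3% in all against the same 18.4%. CSF3 (G-CSF) read 1293 and 769 against 8753 and 7030.2, with 2.98 ± 0.27 (adjusted p = 0.000634), and CSF1 (M-CSF) 168 and 231 against 684 and 616, with 1.72 (adjusted p = 0.00334). The receptor IL1R1 was detected only in the knockdown (at least 2.83-fold higher), and the receptor IL7R was lower (-1.45). Among 11 chemokine genes 36.4% were called, against 18.4% of all genes. CCL26 read 241 and 309.9 against 1794 and 1763 (2.70, adjusted p = 0.00111) and CXCL2 was higher by 1.35, while CCL2 was detected in LM-EV only (at least 3.04-fold lower). PTGS2 (COX2), the inducible prostaglandin synthase, read 2447 and 1873 in LM-EV and 11186 and 10550.5 in the knockdown, with 2.34 ± 0.14 (adjusted p = 0.00014).

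PTGS2 and VCAM1 belong to a list of 21 tested genes that have been linked to lung metastasis of breast cancer. Of these 4 were higher and 7 lower, 52.4% in all against 18.4% of all genes. LY6E was the largest fall among those measured on both sides, with 16327 and 19768 against 4626 and 4299.8 (log2 difference -2.01, adjusted p = 0.000307), and FSCN1, an actin-bundling protein, and ID3 were higher (0.79 and 0.54). Epidermal and S100 genes of the 1q21 cluster were higher in 5 of 13 and lower in none, 38.5% in all against 18.4% of all genes. FLG and S100A2 were higher as above, S100A4 by 1.11 (adjusted p = 0.00291) and S100A6 by 0.72. The neighbours of FLG and S100A4 on chromosome 1 had medians of 0.37 and 0.49. Of 9 cancer-testis genes 77.8% were called, against 18.4% of all genes. In the knockdown 5 were lower, 4 of them not above background, and 2 were called higher. These were MAGEC2, which was below background in LM-EV (at least 1.10-fold), and SYCP2, which no array detected at 6 h.

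Of Wnt and Notch genes 7 of 24 were lower and 2 higher, 37.5% in all against 18.4% of all genes. DKK1, a secreted Wnt inhibitor, read 48826 and 40773 in LM-EV and 17128 and 14772 in the knockdown, a log2 difference of -1.49 ± 0.12 (adjusted p = 0.000372). NOTCH3 was below background in the knockdown (at least 2.20-fold lower), and the Notch targets HEY1 and HEYL had -1.19 and -1.61, HEYL with 1 detected array in the knockdown. LFNG, a glycosyltransferase that tunes Notch, was higher by 1.47. Of angiogenic genes 4 of 25 were higher and 4 lower, 32% in all against the same 18.4%. ESM1 (endocan) read 13724 and 9783 against 872 and 1422, with -3.38 ± 0.40 (adjusted p = 0.00213), while FGF5 was higher by 2.28 and PDGFB by 1.85.

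Because the study followed HBEGF in exosomes, 25 genes of exosome and vesicle secretion were looked at, and 2 were higher and 6 lower, 32% in all against 18.4% of all genes. The small GTPases RAB27A and RAB27B, both known for roles in exosome secretion, went opposite ways. RAB27A read 943 and 707 in LM-EV and 1952 and 1843 in the knockdown (1.22 ± 0.16, adjusted p = 0.00297), and RAB27B 3106 and 3988 against 1725 and 1438 (-1.16 ± 0.27, adjusted p = 0.0251). They lie on chromosomes 15 and 18, within neighbourhoods with medians of 0.71 and -0.62. The ESCRT component CHMP4C had -3.13 (adjusted p = 4.36e-05) and the heparanase HPSE -0.82. Second probes of RAB27B and HPSE gave smaller differences (-1.16 and -0.26 over the probes of RAB27B, -0.82 and -0.01 over those of HPSE).

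Among 24 ribosomal protein genes 1 was called lower (RPS23, -0.61), and among 26 oxidative phosphorylation genes 1 was higher (COX5A, 0.53) and 1 lower (UQCRC1, -0.60), 4.17% and 7.69% against 18.4% of all genes. COX5A lies on chromosome 15 among genes with a median of 0.65, and with arrays centred within chromosomes its difference was 0.00995 (adjusted p = 0.967). UQCRC1 and RPS23 also lost their calls under that centring (-0.54 and -0.42). Of 29 S-phase genes 4 were lower, MCM5 (-0.86), RFC3 (-0.93), CCNE1 (-0.86) and FEN1 (-0.70), and RFC4 (0.45) was higher. Of 26 mitotic genes 3 were higher and 1 lower, among them KIF23 (0.90), and of 14 cyclins and CDK inhibitors 2 were lower, CCNG1 (-0.63) and CCND2, which read 3457 and 3389.5 in LM-EV and 1661 and 1766 in the knockdown. With arrays centred within chromosomes, all called mitotic genes lost their calls: KIF23 (0.39), AURKA (0.35), CCNB2 (0.11) and KIF11 (-0.34). RFC3 (-0.29), FEN1 (-0.42) and CCNG1 (-0.44) lost theirs as well. Of 18 sterol and lipid synthesis genes 4 were lower, led by FASN (-1.03), and INSIG1 (0.80, but -0.05 and 0.80 over its probes) was higher. Among those lower, DHCR7 (-0.41) and SC5D (-0.33) lost their calls under the same centring. In cell death genes TNFSF10 (TRAIL) read 324 and 392 in LM-EV and was below background in the knockdown (at least 7.16-fold lower), TNFRSF21 was higher by 1.26, and the counts were 2 higher and 4 lower of 22. CASP4, among those lower, also lost its call under that centring (-0.42). The shares called were 17.2% for S-phase genes, 15.4% for mitotic genes and 14.3% for cyclins and CDK inhibitors. They were 27.8% for sterol and lipid genes and 27.3% for cell death genes.

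The remaining lists are given by their counts, to be read against 8.63% higher and 9.78% lower, 18.4% in all, over all genes. Counts of higher and lower members were 2 and 2 of 16 immediate early factors, 2 and 0 of 17 genes of ERK feedback, 1 and 1 of 26 ATF4 targets, 0 and 1 of 16 chaperones of the endoplasmic reticulum, 0 and 2 of 16 NRF2 targets, 2 and 2 of 19 heat-shock genes and 3 and 0 of 22 histone deacetylases and JmjC demethylases. The shares called were 7.69% for the ATF4 targets, 6.25% for the chaperones and 11.8% for ERK feedback, all under that of all genes. Metallothionein and zinc genes were higher in 2 and lower in 2 of 9, where MT1M was detected in LM-EV only (at least 6.68-fold lower) and MT1F had -1.70. With arrays centred within chromosomes, the heat-shock genes HSPH1 (0.00724), BAG3 (-0.20) and HSPA6 (1.39) lost their calls. So did EGR1 (-0.46), TKT (-0.42), HDAC6 (0.48) and MTF1 (0.32) of the immediate early, NRF2, deacetylase and zinc lists. Genes of mesenchymal transition were higher in 2 of 7, SNAI2 (1.27) and S100A4. Of 9 keratins and epithelial regulators, KRT80 (1.34) and FOXA1 (1.17) were higher. Markers of other cell types were sparse: 4 of 13 blood markers, 1 of 9 endothelial and 6 of 10 fibroblast markers were detected well enough to test. Of the 4 blood markers CD14 was lower, with 646 and 808 in LM-EV and 105 and 76.4 in the knockdown, CSF1R was higher, with 53.4 and 80.1 against 144 and 143, and the other 2 were not called. Of the luminal markers 2 of 10 tested, FOXA1 and EPCAM, were higher. The summed signal of the fibroblast markers ran from 1170.2 to 1546 in LM-EV and from 421 to 481 in BHLHE40-KD, with THY1, PDGFRB and ACTA2 lower and LUM higher, and their part in the results was not tested.

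The line difference was unevenly spread over the chromosomes. On chromosome 13 the median over 210 genes was -0.64, and 101 of them were lower and 4 higher, 50% in all. On chromosome 15 the median over 400 genes was 0.54, with 161 higher and 11 lower. Chromosomes 10 and 11 had medians of -0.28 and -0.30, with 112 and 143 lower genes, and on the others medians ran from -0.24 on chromosome 9 to 0.17 on chromosome 14. The medians matched between slides, -0.69 and -0.59 for chromosome 13 and 0.53 and 0.55 for chromosome 15, and they were there untreated (-0.77 and 0.53) and at 48 h (-0.67 and 0.54). Within either line the change from untreated to 6 h had chromosome medians between -0.09 and 0.06. Chromosomes 10, 11, 13 and 15 together held 14.7% of the tested genes and 24.7% of the calls, and 16.3% of the genes on the other chromosomes were called.

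Some shifts covered only part of a chromosome. With genes ordered by GRCh38.p14, the median of the 15 tested genes on either side passed 0.4 in size in 12 stretches of at least 20 genes. On X the 62 genes from PCSK1N to ZC4H2 had a median of 0.79, and 35 of them were higher and 1 lower. On chromosome 8 the 71 genes from RPL23AP53 to TNFRSF10D had a median of -0.58 with 27 lower, and on chromosome 18 the 47 genes from RPL17 to SOCS6 had -0.62 with 19 lower. On chromosome 1 the 37 genes from SPRR1A to CKS1B, S100A2, S100A3, S100A4 and S100A6 among them, had a median of 0.49. Of the genes called lower 17.6% lay in neighbourhoods under -0.4, against 4.87% of the genes tested, and of those called higher 22.9% lay in neighbourhoods above 0.4, against 4.94%. The neighbours of HBEGF had a median of -0.40. With each array centred within each chromosome, HBEGF had a log2 difference of -0.52 and lost its call (adjusted p = 0.074), while TGFA, VEGFA, EDN1, GMFG and CIART kept theirs. The panel of the study lay 0.68 below its neighbours in the median, close to its own median, and 13 members were called after the centring. No copy number was measured, and the part of these shifts in the calls was not tested beyond these values.

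**Figure D5:**
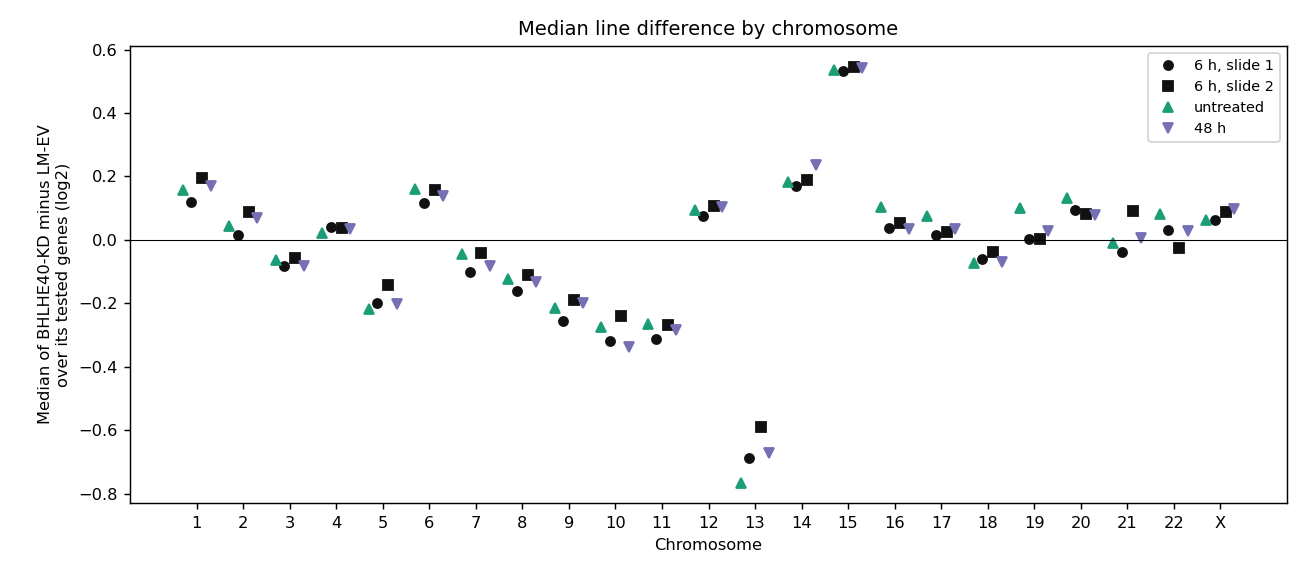
Median log2 difference, BHLHE40-KD minus LM-EV, over the tested genes of each chromosome; black circles and squares are slides 1 and 2 at 6 h, green triangles untreated and purple triangles 48 h. Chromosome 13 lies between -0.77 and -0.59 and chromosome 15 between 0.53 and 0.55 over these 4 values.

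Most of the line difference at 6 h was present without hypoxia. The comparisons untreated and at 48 h called 2246 (18.2%) and 2034 genes (16.5%). Their log2 differences came from other arrays of the same lines and slides. The variance of each gene was shared, however, since the same fit over all arrays gave the p-values at the 3 times. A gene with a small variance was thus more easily called at each time, so the shared calls are not independent of each other. Of the 2272 calls at 6 h, 1450 had the same call untreated, which is 63.8% of the 6 h calls and 64.6% of the untreated calls, and 1408 had the same call at 48 h, 62.0% and 69.2%. In all 1117 genes were called the same way at the 3 times, and 525 at 6 h only. Only 2 genes had an opposite call untreated and 4 at 48 h. Across all genes the difference at 6 h correlated with that untreated with r = 0.79 and with that at 48 h with r = 0.79, again as a description over genes that share lines.

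Whether the line difference itself changed with hypoxia was tested directly. From untreated to 6 h limma called 3 genes of 12336 (0.0243%), GPRACR, SYCP2 and RPRM, with 756 at an unadjusted p under 0.05, and from 6 h to 48 h it called 0 (0%), with 711 at an unadjusted p under 0.05. GPRACR read 16 on both arrays in LM-EV at 6 h and 65.6 and 51.7 in BHLHE40-KD, and all 3 genes were at or near background on most arrays. Of the 525 genes called at 6 h only, 135 had an unadjusted p under 0.05 for the change from untreated. For HBEGF the p-value of that change was 0.276 before and 0.899 after adjustment, for EDN1 0.0128 and 0.732, and for BHLHE40 0.431 and 0.933, so that no change of their line difference between untreated cells and 6 h was detectable with 2 arrays a group.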

How the data were processed

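RNA from 12 cultures was hybridised to Illumina HT-12 arrays. The authors subtracted background and quantile-normalized the deposited intensities in GenomeStudio, and a deposited detection p-value came with each. Bead-signal intensities, as deposited, followed the normalized ones on 7 of 12 arrays and served only as an alternative. No sample column was left unused, and the arrays' number limits the precision. Intensities were raised to a floor of 16 (38.7% of values) and put on the log2 scale. Probes detected at p under 0.05 on both arrays of 1 group or more were kept (22207), and the brightest stood for a gene. Of all probes 30105 had 1 symbol in the platform annotation, 8 had several and 17189 had none; unnamed probes were left out. limma 3.58.1 (R 4.3.3) fitted 6 groups over 12 arrays with the slide, read from the chip number in the titles, as a block, and p-values were Benjamini-Hochberg adjusted over all 12336 genes, called under 0.05. Arrays of 1 slide deviated together in 13 of 15 group pairs (correlation over 0.1; 0.21 for the 2 groups at 6 h). The script was tested on simulated data. E-boxes were sought in RefSeq promoters.

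Genes were named by rule: BHLHE40, the 15 largest called differences each way with the same direction on both slides, up to 4 called members and 2 others of each list, interaction genes, and the 5 largest bounds each way. Further list members were named after their values were seen, among them all called members of the panel and of the interferon list. The members and lists were chosen with earlier results of these data known. Alternatives concerned the block, the arrays fitted, the floor, detection, probes, normalization, weights and single arrays left out, and, chosen after seeing the data, chromosome shifts.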

Additional observations from a re-analysis of the deposited data

Results flagged for a closer look

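GPRACR, SYCP2 and RPRM stood out because their line difference changed between untreated cells and 6 h of hypoxia in a direct test of that change (limma, 2 arrays a group). The change was 3.07 ± 0.24 (SE) on the log2 scale for GPRACR (adjusted p = 0.0179), 2.89 for SYCP2 (adjusted p = 0.0179) and -1.72 for RPRM (adjusted p = 0.019). GPRACR was detected at 6 h in BHLHE40-KD only, and RPRM was at the floor of 16 on all 4 arrays at 6 h. SYCP2 was detected on no array at 6 h, with 16 and 18.5 in LM-EV and 45.5 and 37.4 in BHLHE40-KD. None of the 3 was called with a floor of 64.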

How the results depend on the processing

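No called gene turned to an opposite call under any alternative run, but counts moved. Leaving out 1 array at 6 h gave 351 to 448 higher and 443 to 747 lower genes, 98 to 130 called list members (211 with all arrays), 96 to 117 called named genes (179 with all arrays), 575 to 777 genes called alike at the 3 times (1117 with all arrays), and 0 to 6 and 0 to 1 changes of the line difference before and after 6 h; BHLHE40 lay between -0.72 and -0.26. The cause was not tested beyond the loss of an array.

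With only the 4 arrays at 6 h, 291 genes were higher and 408 lower, with 93 list members and 97 named genes called, on 1 residual degree of freedom. Bead signals with neqc over the 7 arrays that follow gave 234 and 334, with 81, 87 and 248 called alike at the 3 times, and 0 changes of the line difference from untreated to 6 h. The 7 arrays comprised all those of slide 1 and the untreated LM-EV array of slide 2. Each line thus had 1 array at 6 h and 1 at 48 h. The 1 residual degree of freedom came from the untreated LM-EV pair. The bead-signal counts are therefore no replicated check of the calls at 6 h. Changes of the line difference from untreated to 6 h numbered 0 with a floor of 64, with a constant of 100 and with detection p under 0.01. They numbered 17 with no filter on detection, where the later change gave 2. With detection under 0.01, 119 named genes were called, and 114 of the 179 were tested and called. Without genes of chromosomes 10, 11, 13 and 15, 794 lower genes remained to be called. At least 1.5-fold on both slides became 545 higher and 668 lower with the constant, 597 and 618 with stricter detection, 354 and 489 at 2-fold, 1770.0 and 1966 on slide 1 alone and 1702 and 1779 on slide 2 alone. Genes detected in 1 line only numbered 55 and 108 with detection under 0.01. HSPH1 turned from -0.63 to 0.00724 when arrays were centred within chromosomes.

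Without the replicate block, 762 genes were higher and 893 lower, 1643 of the 2272 calls were shared, and 820.0 were alike at the 3 times. Of 179 called named genes, 78 kept their call in every alternative that tested them, other than the bead signals and the 4 arrays alone. Stricter detection tested only 114 of the 179. Genes at or near background in 1 line, among them many of the largest differences, were not put to that alternative. With 2 arrays a line and 1 line each, changes smaller than about 0.37 were not called, and signals near 50 lay at the detection limit.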
